A study of Mus musculus with 6 samples.

Results

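The TCRs of P2+CD4+ T cells from the first uveitis pool (dataset 1) were compared with those from the second (dataset 2), chain by chain, from J gene to CDR3 to the contigs that no productive receptor used. P2 is the peptide of interphotoreceptor retinoid-binding protein (IRBP), a protein of the retina, that these CD4+ T cells bound as a tetramer with the class II molecule I-Ab. A barcode counted as a cell where it held productive contigs of both TRA and TRB for which V gene, J gene and CDR3 were all named. Cells were put in 1 clonotype where these genes and the CDR3 nucleotides were identical for TRA as well as TRB. By this rule dataset 1 gave 176 cells in 138 clonotypes and dataset 2 gave 324 cells in 142 clonotypes, together 500 of the 970 cells of the series. The remaining 470 cells, in 411 clonotypes, came from the library without uveitis, whose values stand beside those of the uveitis pools as a background only.

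All 3 libraries held CD4 single positive T cells from the lymph nodes of AireGW/+ Lyn-/- mice, which were 9 wk of age. AireGW is a hypomorphic allele of Aire, the gene that lets the thymus show tissue proteins to developing T cells, and Lyn is a tyrosine kinase that restrains myeloid cells and B cells. The uveitis pools came from animals with uveitis, which is inflammation of the retina and the adjacent uvea, and the background library from animals without it. Cells were enriched with P2 tetramer on magnetic beads and sorted, so a few of them may not bind P2. Each library pooled several mice, and no label ties a cell to its mouse. With 1 pool on each side, the spread between animals was not measured and no test was made. Each interval given is an exact 95% Clopper-Pearson interval of counting error in that pool alone. The deposited contig tables hold receptor chains only and the mRNA libraries of the pools were not used, so the CD4 label was not checked against marker genes. Every cell counted carried a productive TRA and TRB by construction.

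A TCRα chain is made by joining 1 of many TRAV genes to 1 of many TRAJ genes, and a TCRβ chain by joining a TRBV gene to a TRBD gene and a TRBJ gene. The enzymes that make the joins trim the gene ends and add untemplated bases, and the stretch across the join, the CDR3, is the loop that usually lies over the peptide. TRAJ genes lie in 1 row, whereas TRBJ genes lie in 2 clusters, TRBJ1 and TRBJ2, each behind its own TRBD gene.

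Dataset 1 had fewer cell barcodes and in total fewer UMIs, which count captured molecules, but more reads for each UMI than dataset 2. Dataset 1 held 676 contigs with 5302 UMIs in 212 cell barcodes and dataset 2 held 800 contigs with 7439 UMIs in 365 barcodes, with 6179 and 3857 reads for each UMI. A productive TRA and TRB were both present in 83.0% of barcodes of dataset 1 (interval 77.3 to 87.8) and in 88.8% of dataset 2 (85.1 to 91.8). The uveitis pools shared 0 cell barcodes, dataset 1 shared 0 with the background library and dataset 2 shared 1. More than 1 productive TRB was found in 10 cells of dataset 1 and 29 of dataset 2, and these cells were kept.

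Few CDR3 sequences were common to the uveitis pools, and most of the CDR3α among them came from the TRAV9 family with TRAJ31 or TRAJ22. Of 115 CDR3α amino acid sequences in dataset 1 and 122 in dataset 2, 7 were in both, and of 107 and 122 CDR3β sequences, 1 was in both. In 3 of the 7 CDR3α, at least 1 nucleotide sequence was also the same. These, and the CDR3β, are shown because they are the CDR3 sequences found base for base in both pools. Lower case marks bases that match the germline V gene from the CDR3 start or the germline J gene from the CDR3 end. Capitals mark the bases between these matches. They can be added bases, bases past a first difference from the named gene and, in TCRβ, bases of the D gene.

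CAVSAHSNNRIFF, TRAV9-4 and TRAJ31, in both: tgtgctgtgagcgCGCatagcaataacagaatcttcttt
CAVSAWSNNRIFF, TRAV9-4 and TRAJ31, in both: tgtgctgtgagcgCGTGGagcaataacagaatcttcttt
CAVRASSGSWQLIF, TRAV9-1 and TRAJ22, in both: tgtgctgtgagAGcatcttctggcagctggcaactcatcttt
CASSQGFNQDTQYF, TRBV5 and TRBJ2-5, in both: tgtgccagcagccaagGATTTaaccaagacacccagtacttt

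The TRAV9-4 and TRAJ31 chain with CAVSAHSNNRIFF was carried by 2 cells of dataset 1 and 37 cells of dataset 2, and also by 3 cells without uveitis. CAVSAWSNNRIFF was carried by 2 cells of 1 clonotype in dataset 1 and by 60 cells of 7 clonotypes in dataset 2. In dataset 2 its cells used TRAV9-1 in 40 cells, TRAV9-4 in 18 and TRAV9D-1 in 2. How well contig assembly tells these genes of 1 family apart was not tested. 1 of these 7 clonotypes, of 1 cell, spelled the same residues with another base after the V gene (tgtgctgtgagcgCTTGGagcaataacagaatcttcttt). The first 2 of these CDR3α differ at the residue before SNNRIFF, a stretch written by the germline TRAJ31 gene. TRAJ31 lies at chr14:54187895-54187951 on the plus strand of GRCm38, and its germline coding segment, shown to mark where the joins begin, reads as follows in GENCODE.

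TRAJ31 germline: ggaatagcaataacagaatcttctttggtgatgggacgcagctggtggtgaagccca
TRAJ22 germline: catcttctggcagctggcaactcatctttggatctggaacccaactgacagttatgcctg
TRBJ2-5 germline: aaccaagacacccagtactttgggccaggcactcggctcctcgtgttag

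TRAJ22 lies at chr14:54197248-54197307 and TRBJ2-5 at chr6:41543453-41543501, both on the plus strand. The other 4 CDR3α in both pools had the same residues from different bases. Positions are counted from 1 at the first base of the CDR3, with the base of dataset 1 first. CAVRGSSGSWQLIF, of TRAV9-1 and TRAJ22, differed by A15G, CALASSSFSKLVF, of TRAJ50, by T7C, and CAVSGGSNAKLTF, of TRAV9D-1 and TRAJ42, by C12T. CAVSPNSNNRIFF, of TRAJ31, differed by T6A, G9T, C12T and G15C, of which the V genes differ too, since it used TRAV9-1 in dataset 1 and TRAV7N-4 in dataset 2. Likewise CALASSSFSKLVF used TRAV9N-3 in dataset 1 and TRAV13D-1 in dataset 2.

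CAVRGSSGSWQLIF, dataset 1: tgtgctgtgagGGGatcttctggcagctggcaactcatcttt
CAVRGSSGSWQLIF, dataset 2: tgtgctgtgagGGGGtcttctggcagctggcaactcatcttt
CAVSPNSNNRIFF, dataset 1: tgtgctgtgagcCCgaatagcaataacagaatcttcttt
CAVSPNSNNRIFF, dataset 2: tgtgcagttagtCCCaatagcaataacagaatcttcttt
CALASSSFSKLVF, dataset 1: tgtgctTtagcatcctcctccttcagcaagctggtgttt
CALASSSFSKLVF, dataset 2: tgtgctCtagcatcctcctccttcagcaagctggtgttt
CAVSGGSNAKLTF, dataset 1: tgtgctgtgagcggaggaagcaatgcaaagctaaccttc
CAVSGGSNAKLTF, dataset 2: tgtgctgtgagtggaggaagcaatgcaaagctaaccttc

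In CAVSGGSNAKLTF every base matched the germline V or J gene in both pools, so no capitals stand in it. Of the 7 shared CDR3α, 5 used a TRAV9 family gene in both pools, and 1, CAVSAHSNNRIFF, was also in the library without uveitis.

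A shared chain was rarely joined to the same partner. The exception was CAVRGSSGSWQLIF, which was paired with TRBV5, TRBJ2-5 and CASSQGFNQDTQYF in 2 cells of each pool, with the same CDR3β bases and CDR3α bases that differ by A15G. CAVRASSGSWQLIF, whose residues differ from it at the join, was paired in dataset 1 with TRBV5, TRBJ2-5 and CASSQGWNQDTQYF in 1 cell. In dataset 2 it was paired with TRBV26, TRBJ2-5 and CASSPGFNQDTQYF in 6 cells of 3 clonotypes. The chains of these pairs were chosen after their values were seen, and are shown because their CDR3β are alike across different TRBV genes and different bases.

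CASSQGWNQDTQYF, dataset 1, TRBV5: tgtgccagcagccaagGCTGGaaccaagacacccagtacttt
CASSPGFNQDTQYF, dataset 2, TRBV26, 3 cells: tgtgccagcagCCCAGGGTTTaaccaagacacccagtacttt
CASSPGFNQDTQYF, dataset 2, TRBV26, 2 cells: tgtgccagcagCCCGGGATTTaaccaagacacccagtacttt
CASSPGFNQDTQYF, dataset 2, TRBV26, 1 cell: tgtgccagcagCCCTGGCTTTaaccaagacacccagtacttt

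The residues NQDTQYF at their end are those of the whole germline TRBJ2-5 gene up to the end of the CDR3. A CDR3β of the form CASSxGxNQDTQYF, where x is any residue, was found in 5 clonotypes (6 cells) of dataset 1 and 5 clonotypes (9 cells) of dataset 2. Without uveitis it was in 0 of 411 clonotypes, and a count of 0 there allows up to 0.730%. A CDR3α of the form CAVRxSSGSWQLIF with TRAJ22 was found in 2 clonotypes (3 cells) of dataset 1, 5 clonotypes (9 cells) of dataset 2 and 0 without uveitis. Both forms were drawn from CDR3 of the uveitis pools after these were seen, so their presence and pairing there followed from that choice. The counts of 0 without uveitis are no independent support, and the difference was not tested. The forms stood together in 2 of the 2 clonotypes of dataset 1 and in 4 of the 5 of dataset 2, with TRAV9-1 or TRAV9D-1. Outside these pairs, the form of CDR3β was joined in dataset 1 to TRAV10 with TRAJ12, TRAV6-3 with TRAJ31 and TRAV9-2 with TRAJ31, each in 1 cell, and in dataset 2 to TRAV4N-4 with TRAJ11 in 1 cell.

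The shared TRAJ31 chains had other partners in each pool. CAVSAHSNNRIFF was paired with TRBV5 in both of its clonotypes in dataset 1, with TRBJ2-5 in 1 cell and TRBJ2-7 in 1 cell, and with TRBV31 and TRBJ1-3 in its 37 cells of dataset 2. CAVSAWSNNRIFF was paired with TRBV26 and TRBJ1-6 in dataset 1, and in dataset 2 with TRBV12-2 and TRBJ2-3 in 34 cells, TRBV19 and TRBJ1-3 in 16 and 5 other partners in 1 to 5 cells. The clonotypes with the most cells used TRAJ31 in dataset 2 and other TRAJ genes in dataset 1. These were TRAV12D-3 with TRAJ13 and TRBV3 with TRBJ2-7, in 12 cells, and TRAV12-2 with TRAJ47 and TRBV23 with TRBJ2-4, in 8 cells, and their CDR3 sequences are shown beside the CDR3β of the largest clonotypes of dataset 2.

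TRAJ13, dataset 1, 12 cells: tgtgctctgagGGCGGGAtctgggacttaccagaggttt
TRBJ2-7 partner: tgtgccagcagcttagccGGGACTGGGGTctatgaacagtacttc
TRAJ47, dataset 1, 8 cells: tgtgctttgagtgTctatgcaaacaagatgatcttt
TRBJ2-4 partner: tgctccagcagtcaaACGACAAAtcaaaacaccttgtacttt
TRBJ1-3, dataset 2, 37 cells: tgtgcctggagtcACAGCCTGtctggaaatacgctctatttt
TRBJ2-3, dataset 2, 34 cells: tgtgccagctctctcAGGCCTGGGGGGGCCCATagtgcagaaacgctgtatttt

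The longest of these, the TRBJ2-3 chain of 34 cells, had 54 bases of which 18 lay between the germline matches. The CDR3α of the TRAJ47 clonotype had 1 such base in 36.

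Usage of the TRAJ genes overlapped between the pools when each clonotype counted as 1. Of the 43 TRAJ genes found in either pool, 36 were in both, and these held 132 of 138 clonotypes of dataset 1 and 127 of 142 of dataset 2. The intervals of the pools did not overlap for 0 of 43 genes (0%). TRAJ31 led in both, with 10.9% of clonotypes in dataset 1 (15, interval 6.21 to 17.3) and 12.7% in dataset 2 (18, 7.69 to 19.3), beside 5.11% (21 of 411) without uveitis.

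TRAJ22 came next in dataset 2, with 10 clonotypes (7.04%), and shared that place with TRAJ23 in dataset 1, with 9 each (6.52%). Without uveitis TRAJ22 had 12 of 411 (2.92%) and TRAJ23 had 23 of 411 (5.60%). TRAJ23 had 7 clonotypes in dataset 2. By pool in the same order, TRAJ12 had 7 and 5, TRAJ15 had 7 and 3, and TRAJ30 had 3 and 6. The widest gaps were those of TRAJ6 and TRAJ11, with 0 clonotypes in dataset 1 and 6 each in dataset 2 (4.23%, 1.57 to 8.97). A count of 0 among 138 allows a share of up to 2.17%, and the intervals of the pools overlap for both genes.

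The TRAJ genes used lay along the whole row. The median distance from the used TRAJ gene to TRAC, the constant gene at the far end of the row, was 31.6 kb in dataset 1 (quartiles 18.7 to 38.9) and 32.6 kb in dataset 2 (21.7 to 40.5), beside 32.6 kb without uveitis.

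Counted by cells, the pools stood apart at TRAJ31. It was in 21 of 176 cells of dataset 1 (11.9%, 7.54 to 17.7) and in 113 of 324 cells of dataset 2 (34.9%, 29.7 to 40.3), beside 30 of 470 (6.38%) without uveitis. The largest TRAJ31 clonotype had 4 cells in dataset 1 and 37 in dataset 2. The intervals by cells did not overlap for 3 of the 43 TRAJ genes (6.98%), and the other two were TRAJ13, with 17 cells (9.66%) against 6 (1.85%), and TRAJ47, with 9 cells (5.11%) against 0. Of the 17 TRAJ13 cells of dataset 1, 12 were of its largest clonotype, and of the 9 TRAJ47 cells, 8 were of its next largest. An interval over cells takes them as independent, which cells of 1 clonotype are not.

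The TRAJ31 clonotypes of both pools used the TRAV9 family most. A TRAV9 family gene was used by 10 of 15 TRAJ31 clonotypes in dataset 1 (66.7%, 38.4 to 88.2) and 12 of 18 in dataset 2 (66.7%, 41.0 to 86.7), beside 5 of 21 (23.8%, 8.22 to 47.2) without uveitis. The ending SNNRIFF keeps nearly all of the germline TRAJ31 gene up to the end of the CDR3. The CDR3α had this ending in 9 of 15 clonotypes (60%) and 15 of 18 (83.3%), beside 14 of 21 (66.7%) without uveitis. It was 39 bases long in 9 of 15 (60%) and 13 of 18 (72.2%), beside 10 of 21 (47.6%). The intervals of the uveitis pools overlap in each of these shares, and the last 2 properties were chosen after their values were seen.

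**Figure D1:**
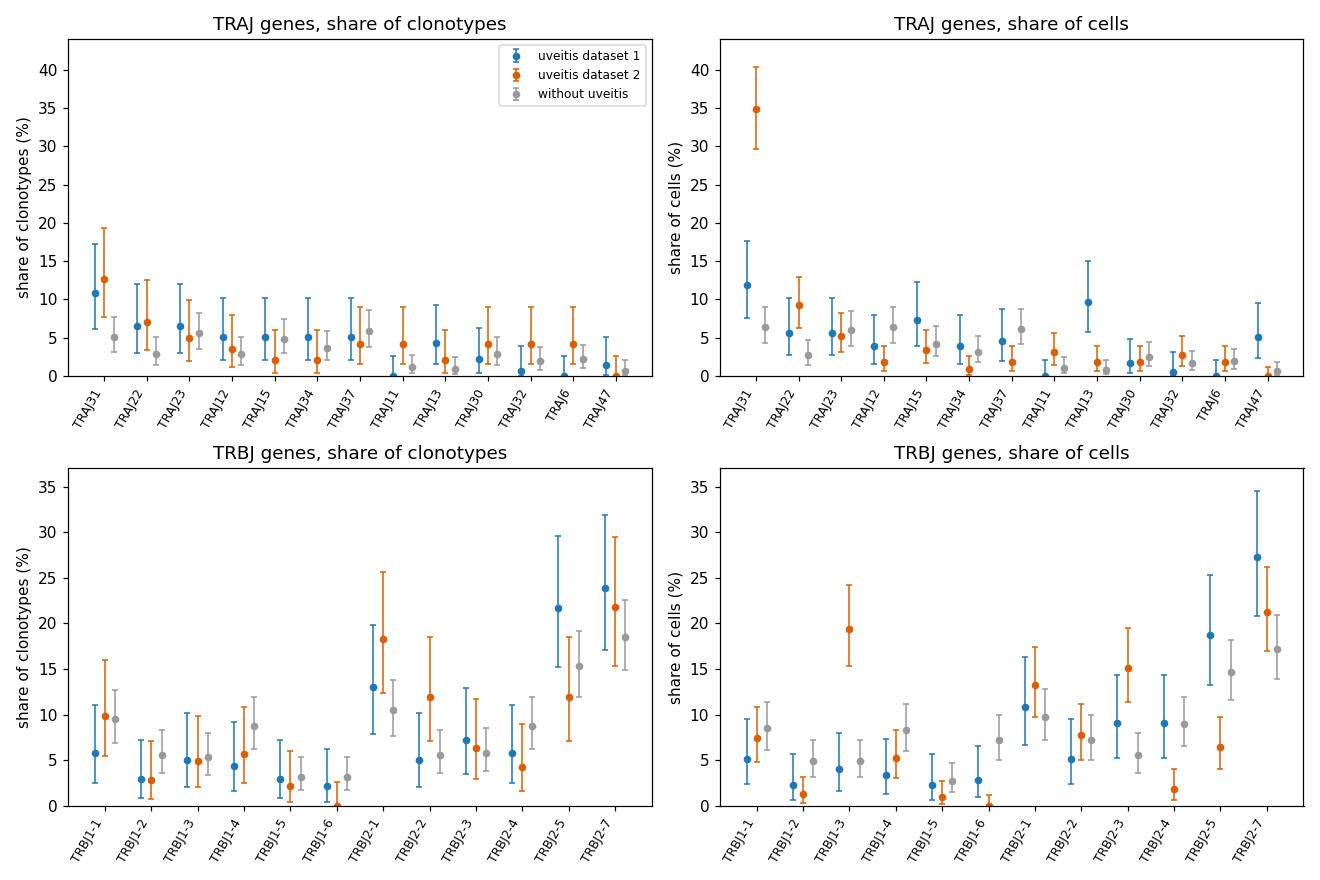
Share (%) of clonotypes (left) and of cells (right) that used each J gene in uveitis dataset 1 (blue), uveitis dataset 2 (orange) and the library without uveitis (grey), with exact 95% intervals as bars. The top row shows the TRAJ genes with at least 6 clonotypes in either uveitis pool or with intervals apart by cells, and the bottom row all 12 TRBJ genes; blue and orange bars overlap throughout on the left, while on the right TRAJ31 and TRBJ1-3 stand at 34.9% and 19.4% of cells in dataset 2.

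TRBJ usage likewise overlapped by clonotype. Of 12 TRBJ genes, 11 were in both pools, and TRBJ1-6 had 3 clonotypes in dataset 1 and 0 in dataset 2. The intervals did not overlap for 0 of 12 genes (0%). TRBJ2-7 led in both, with 23.9% (33 clonotypes, 17.1 to 31.9) and 21.8% (31, 15.3 to 29.5).

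The following ranks differed. TRBJ2-5 was used by 21.7% of clonotypes in dataset 1 (30, 15.2 to 29.6) and 11.97% in dataset 2 (17, 7.13 to 18.5), and TRBJ2-2 by 5.07% (7, 2.06 to 10.2) and 11.97% (17, 7.13 to 18.5). TRBJ2-1 was used by 13.04% (18) and 18.3% (26), TRBJ1-1 by 5.80% (8) and 9.86% (14), and TRBJ2-3 by 7.25% (10) and 6.34% (9). All of these intervals overlap.

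The TRBJ2 cluster, at chr6:41542754-41543856 from TRBJ2-1 to TRBJ2-7, was used by 106 clonotypes in each pool, 76.8% in dataset 1 (68.9 to 83.6) and 74.6% in dataset 2 (66.7 to 81.6), beside 64.5% (59.6 to 69.1) without uveitis. By cells it was 80.1% (73.4 to 85.7) in dataset 1 and 65.7% (60.3 to 70.9) in dataset 2, and these intervals do not overlap. As for TRAJ, they take cells of 1 clonotype as independent, which they are not.

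By cells, the intervals were apart for 3 of the 12 TRBJ genes (25%). TRBJ1-3 was in 7 cells of dataset 1 (3.98%) and 63 cells of dataset 2 (19.4%), of which 37 and 16 were of the TRBV31 and TRBV19 clonotypes with shared CDR3α. TRBJ2-5 was in 33 (18.8%) and 21 cells (6.48%), and TRBJ2-4 in 16 (9.09%) and 6 (1.85%), of which 8 in dataset 1 were of its clonotype with TRBV23.

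TRBD calls were spread evenly in both pools. TRBD1 was called in 48 clonotypes (34.8%) of dataset 1 and 53 (37.3%) of dataset 2, TRBD2 in 51 (36.96%) and 52 (36.6%), and no D gene in 39 (28.3%) and 37 (26.1%). TRBD2 lies behind the TRBJ1 cluster, so that a direct TRBD2 to TRBJ1 join would run backwards. Such a join was called in 1 of 51 TRBD2 clonotypes of dataset 1 (1.96%, 0.0496 to 10.4) and 5 of 52 of dataset 2 (9.62%, 3.20 to 21.03), and a TRBJ1 gene was used by 21 of 48 (43.8%) and 19 of 53 (35.8%) TRBD1 clonotypes. D genes are short and often trimmed, and their calls rest on few bases. The constant gene could not separate the clusters, since TRBC1 was listed for all 176 and 324 TRB chains.

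V-J joins repeated between the pools mostly in TRB. Dataset 1 held 115 different TRA joins and dataset 2 held 111, and 14 were in both, which is 12.2% of the first set and 12.6% of the second. These 14 held 27 clonotypes (19.6%) of dataset 1 and 28 (19.7%) of dataset 2. By cells they held 35 of 176 and 133 of 324. In TRB, 68 and 75 joins were found and 37 were in both, 54.4% and 49.3% of each set, with 85 clonotypes (61.6%) and 85 (59.9%). TRB has fewer V and J genes in use (20 TRBV with 12 TRBJ in dataset 1, against 52 TRAV with 38 TRAJ), so the shares of the chains are not on 1 footing.

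The TRA joins with at least 2 clonotypes in both pools were 6, and 5 of them used the TRAV9 family. TRAV9-4 with TRAJ31 had 5 clonotypes (9 cells) in dataset 1 and 4 (55 cells) in dataset 2, beside 1 of 411 without uveitis. TRAV9-1 with TRAJ31 had 2 (2 cells) and 5 (42 cells), TRAV9-1 with TRAJ22 had 2 (3 cells) and 4 (8 cells), TRAV9-2 with TRAJ31 had 2 (4 cells) and 2 (2 cells), and TRAV9-4 with TRAJ56 had 2 (2 cells) and 2 (3 cells). TRAV12D-3 with TRAJ23, the join outside the family, had 3 (3 cells) and 2 (7 cells). The TRAV9 family as a whole was used by 34 clonotypes (24.6%, 17.7 to 32.7) of dataset 1 and 42 (29.6%, 22.2 to 37.8) of dataset 2, beside 43 of 411 (10.5%) without uveitis.

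Some frequent TRA joins were in 1 pool. TRAV16N with TRAJ15 and TRAV9D-1 with TRAJ34 had 3 clonotypes each in dataset 1 and 0 in dataset 2, while TRAV8D-2 with TRAJ11 and TRAV9-1 with TRAJ32 had 0 in dataset 1 and 3 each in dataset 2. TRAV3D-3 with TRAJ5 had 3 in dataset 1 and 1 in dataset 2. A count of 0 itself allows up to 3 clonotypes, so none of these gaps is beyond counting error.

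In TRB, 13 joins had at least 2 clonotypes in both pools. TRBV3 with TRBJ2-7 had 4 clonotypes in dataset 1 and 9 in dataset 2, TRBV13-2 with TRBJ2-7 had 7 and 4, TRBV13-2 with TRBJ2-1 had 4 and 6, and TRBV5 with TRBJ2-5 had 7 and 2. TRBV2, TRBV3 and TRBV31 gave 3 clonotypes in each pool with TRBJ2-7, TRBJ1-1 and TRBJ2-7 in that order. The other 6 were joins of TRBV20, TRBV3, TRBV4 and TRBV5 with 2 or 3 clonotypes in each pool.

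More one-sided joins were TRBV4 with TRBJ2-2, with 1 clonotype in dataset 1 and 6 in dataset 2, TRBV13-1 with TRBJ2-1, with 0 and 5, TRBV20 with TRBJ1-4, with 1 and 5, TRBV13-2 with TRBJ1-4, with 4 and 0, and TRBV13-2 with TRBJ2-4, with 4 and 1. These were 1 clonotype or none against at most 6.

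**Figure D2:**
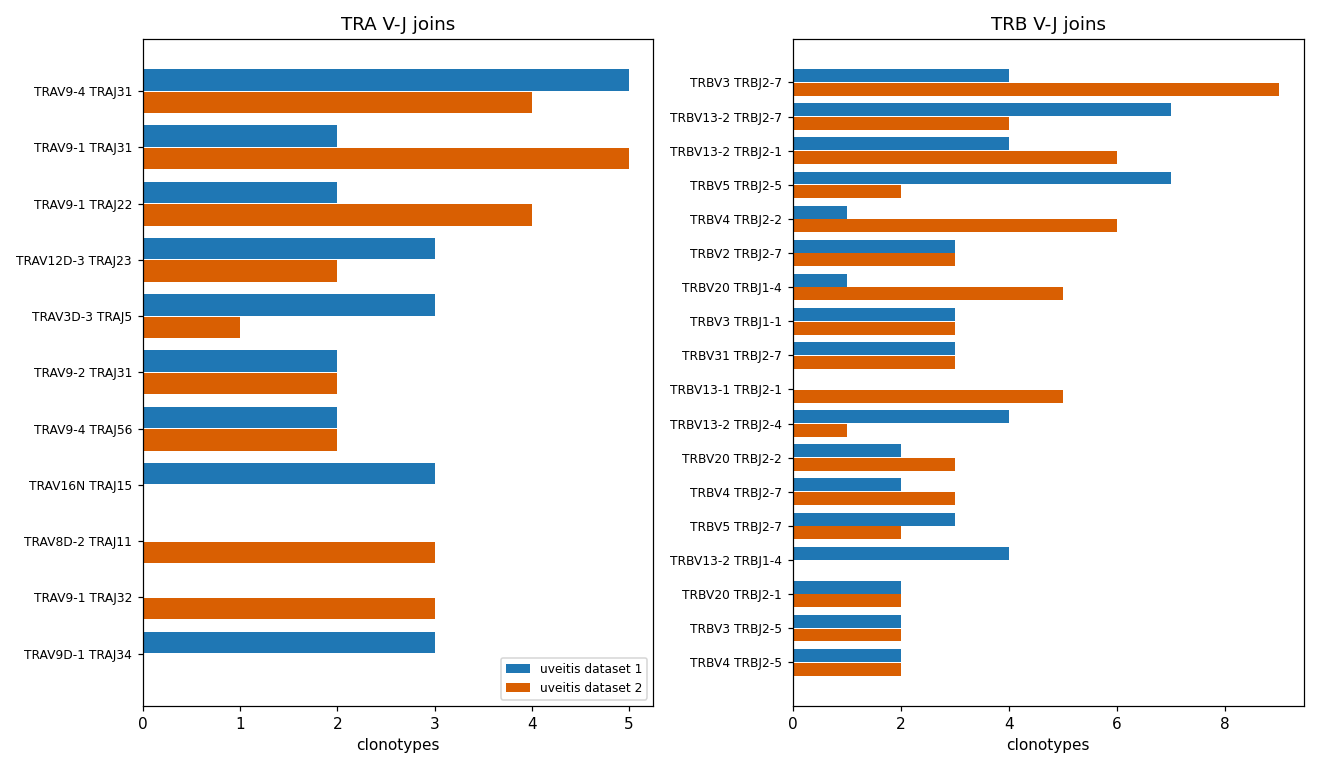
Number of clonotypes (horizontal axis) of each V-J join in TRA (left) and TRB (right) for uveitis dataset 1 (blue) and dataset 2 (orange), for the 5 joins with the most clonotypes in either pool and every join with at least 2 clonotypes in both. The TRA panel is led by TRAV9-4 with TRAJ31 (5 and 4), and the TRB panel by TRBV3 with TRBJ2-7 (4 and 9).

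CDR3 length was the same at the median in both pools for each chain. The CDR3α was 40.1 ± 4.6 bases (mean ± SD over 138 clonotypes) in dataset 1 and 40.6 ± 3.2 (142 clonotypes) in dataset 2, with a median of 39 bases, or 13 residues, in both. A length of 13 residues was held by 38.4% (53, 30.3 to 47.1) and 41.5% (59, 33.3 to 50.1) of clonotypes, beside 27.7% (114 of 411, 23.5 to 32.3) without uveitis.

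CDR3α of 12 residues or fewer made up 16.7% (23) and 12.7% (18), and those of 16 or more 6.52% (9) and 4.23% (6). The 2 shortest CDR3α of dataset 1, of 15 and 18 bases, both used TRAJ44. The 2 TRAJ44 clonotypes of dataset 2 had 42 and 45 bases, and among 8 without uveitis the lengths were 15, 18, 42 or 45. TRAJ44 lacks the usual phenylalanine at the CDR3 end, and the end of its CDR3 is listed at different places. Without the TRAJ44 clonotypes, an alternative chosen after seeing the data, the mean was 40.5 bases in both pools.

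The CDR3β was 42.6 ± 4.1 bases in dataset 1 and 41.8 ± 4.8 in dataset 2, with a median of 42 bases, or 14 residues, in both. The pools differed most at 16 residues, with 18.1% of clonotypes in dataset 1 (25, 12.1 to 25.6) and 8.45% in dataset 2 (12, 4.44 to 14.3), beside 7.06% (4.78 to 9.98) without uveitis. At 12 residues or fewer stood 7.25% (10, 3.53 to 12.9) and 15.5% (22, 9.97 to 22.5). Both pairs of intervals overlap. Counted by cells, the order of the means turned, to 42.8 bases in dataset 1 and 43.4 in dataset 2, where the clonotype of 34 cells had a CDR3β of 54 bases.

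**Figure D3:**
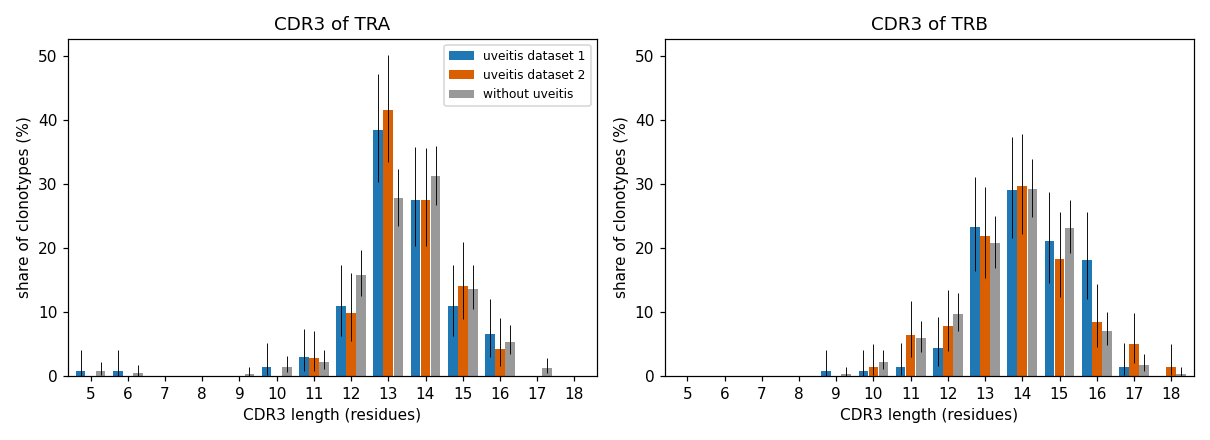
Share (%) of clonotypes with each CDR3 length in residues, for TRA (left) and TRB (right), in uveitis dataset 1 (blue), uveitis dataset 2 (orange) and the library without uveitis (grey), with exact 95% intervals as thin lines. CDR3α peaks at 13 residues in both uveitis pools (38.4% and 41.5%), and CDR3β at 14, with dataset 1 above dataset 2 at 16 residues (18.1% and 8.45%).

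The bases outside the germline matches were few in TRA and more in TRB. In CDR3α, 10.9 ± 2.8 bases (mean ± SD) matched the V gene in dataset 1 and 11.4 ± 2.4 in dataset 2. The J gene matched 25.5 ± 4.4 and 26.2 ± 3.5, and 3.77 ± 3.03 and 3.05 ± 1.91 lay between, beside a mean of 2.93 without uveitis. The median number of bases between was 3 in both uveitis pools, with a highest of 15 in dataset 1 and 9 in dataset 2. These counts depend on the named V gene, since a match stops at the first base that differs from it. By this rule 12 bases lay between in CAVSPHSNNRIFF, called with TRAV9-2 in dataset 1. How far such calls move the means was not tested. CDR3α with no such base numbered 13 (9.42%, 5.11 to 15.6) and 9 (6.34%, 2.94 to 11.7), beside 61 of 411 (14.8%, 11.5 to 18.7) without uveitis. In CDR3β the bases between the matches, the D gene included, were 10.6 ± 4.7 in dataset 1 and 10.6 ± 4.3 in dataset 2, beside 9.54 ± 4.0 without uveitis.

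UMIs per chain were close between the pools, although dataset 1 had more reads for each UMI. The median TRA chain had 5 UMIs in dataset 1 (quartiles 3 to 7, range 1 to 40, 176 cells) and 4.5 in dataset 2 (2 to 8, range 1 to 50, 324 cells), with exact intervals of the median of 4 to 6 and 4 to 5. The median TRB chain had 11 UMIs (7 to 16.25, range 1 to 47) and 10 UMIs (6 to 17, range 1 to 99), with intervals of 10 to 13 and 9 to 11. Without uveitis the medians were 7.5 for TRA (interval 7 to 8) and 16 for TRB (15 to 17), above those of both uveitis pools.

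TRB exceeded TRA in 142 of 176 cells of dataset 1 (80.7%, 74.1 to 86.2) and 259 of 324 of dataset 2 (79.9%, 75.2 to 84.2), beside 81.1% (77.2 to 84.5) without uveitis. The median ratio of TRB to TRA UMIs in a cell was 2.37 and 2.21, beside 2.11. A TRA call rested on 1 UMI in 16 cells of dataset 1 (9.09%) and 25 of dataset 2 (7.72%), and a TRB call in 2 and 5. Reads for each UMI of the chosen chains were 7516 and 4204 for TRA and 4858 and 3602 for TRB.

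Cells of expanded clonotypes, those seen in more than 1 cell, had a median of 16 TRB UMIs in dataset 1 (51 cells, interval 12 to 19) and 11 in cells of clonotypes seen in 1 cell (125 cells, 10 to 12). In dataset 2 these medians were 10.5 (218 cells, 9 to 12) and 9.5 (106 cells, 9 to 11). The corresponding TRA medians were 6 and 5 in dataset 1 and 5 and 4 in dataset 2. The expanded cells of dataset 1 include its largest clonotype, whose 12 cells had 10 to 42 TRB UMIs with a median of 26. In the 37 cells of the largest clonotype of dataset 2 the TRB had 2 to 99 UMIs, with a median of 13, and the TRA 1 to 16, with a median of 3.

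**Figure D4:**
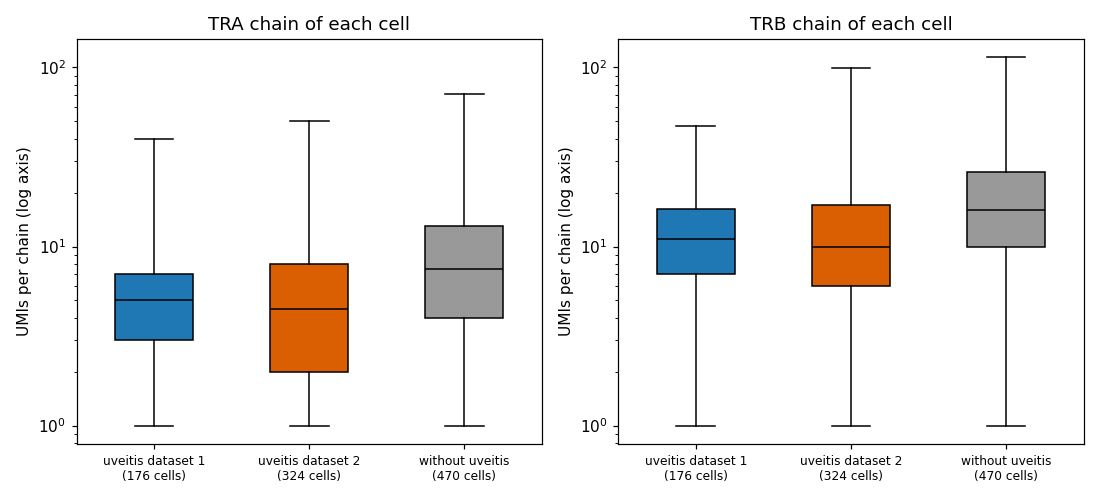
UMIs per chain on a log axis for the chosen TRA (left) and TRB (right) contig of each cell in uveitis dataset 1, uveitis dataset 2 and the library without uveitis. Boxes span the quartiles with the median as a line and whiskers reach the lowest and highest cell; the uveitis medians are 5 and 4.5 for TRA and 11 and 10 for TRB.

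Contigs that were not productive were several times as frequent in dataset 1 as in dataset 2. They were 259 of 676 contigs in dataset 1 (38.3%, 34.6 to 42.1) and 52 of 800 in dataset 2 (6.50%, 4.89 to 8.44), beside 565 of 1648 (34.3%, 32.0 to 36.6) without uveitis. They held 25.3% of all UMIs in dataset 1 and 2.55% in dataset 2. At least 1 was present in 162 of 212 barcodes (76.4%) and 50 of 365 (13.7%). In this, dataset 1 lay near the library without uveitis (78.3% of 512 barcodes) and dataset 2 apart from both. The library preparation of each pool and its mice cannot be told apart here.

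In TRB, 115 of 327 contigs were not productive in dataset 1 (35.2%, 29.995 to 40.6) and 16 of 407 in dataset 2 (3.93%, 2.26 to 6.31), beside 330 of 846 (39.01%) without uveitis. In TRA, 71 of 276 (25.7%, 20.7 to 31.3) and 32 of 389 (8.23%, 5.69 to 11.4) were not productive, beside 133 of 694 (19.2%). The share was higher in TRB in dataset 1 and in TRA in dataset 2, although the intervals of the chains overlap within each pool. Among contigs with both a V and a J gene the order in dataset 1 was the other way, at 20.5% in TRA and 8.62% in TRB, and in dataset 2 the shares were 7.27% and 2.49%.

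Most of the TRB contigs in question had a J gene and no V gene in dataset 1 (95 of 115) and without uveitis (284 of 330). In dataset 2 these were 6 of 16, and the other 10 had both genes. There were 95 in as many of the 212 barcodes of dataset 1 (44.8%, 37.996 to 51.8) and 6 in as many of the 365 of dataset 2 (1.64%, 0.606 to 3.54), beside 284 of 512 (55.5%, 51.0 to 59.8) without uveitis. In dataset 1 they carried 792 UMIs, with a median of 6 and a highest of 58, and in dataset 2 they carried 26, with a median of 4 and a highest of 8. Their median length was 463 and 478 bases, below the 693 and 666 bases of productive TRB contigs.

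In dataset 1, 94 of the 95 stood in barcodes that also had a productive TRB, with the same J gene in 26 and another in 68. They were in 87 of the 176 cells (49.4%, 41.8 to 57.1) and in 8 of the 36 barcodes without a full pair (22.2%, 10.1 to 39.2). TRBJ2-1 and TRBJ2-7 were the J genes of 31 (32.6%, 23.4 to 43.0) and 32 (33.7%, 24.3 to 44.1) of them. The clonotypes of dataset 1 used TRBJ2-1 in 13.04% (7.92 to 19.8) and TRBJ2-7 in 23.9% (17.1 to 31.9). The intervals thus overlap for TRBJ2-7 and not for TRBJ2-1. TRBJ2-5 went the other way, in 8 of the 95 contigs (8.42%) against 21.7% of clonotypes. Without uveitis TRBJ2-1 was in 114 of 284 (40.1%, 34.4 to 46.1) against 10.5% of clonotypes. There TRBJ2-7 was in 56 (19.7%) against 18.5%, and TRBJ2-5 in 36 (12.7%) against 15.3%.

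Contigs with both a V and a J gene that were not productive also differed. For TRB they were 20 in dataset 1, in 9.43% of barcodes (5.86 to 14.2), and 10 in dataset 2, in 2.74% (1.32 to 4.98). For TRA they were 53, in 24.1% of barcodes (18.5 to 30.4), and 28, in 7.40% (4.93 to 10.6), beside 16.2% (13.1 to 19.7) without uveitis. Of these TRA contigs, 16 and 8 were listed as not productive, and the rest carried no call either way. A TRA contig with a J gene and no V gene was in 17 barcodes (8.02%) and 2 (0.548%).

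Contigs of other classes were also more frequent in dataset 1 than in dataset 2. Those that joined genes of different chains numbered 49 in dataset 1 and 4 in dataset 2, none productive, while the library without uveitis had 108, of which 6 were productive. Among those that were not, 29 in dataset 1 put a TRAJ gene on the TRBC1 constant gene, in 13.7% of barcodes (9.36 to 19.1), with TRAJ50 in 21, and 87 did so without uveitis (17.0%), with TRAJ50 in 86. In dataset 2 there was 1 such contig (0.274%), also with TRAJ50.

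Immunoglobulin contigs numbered 11 in dataset 1, in 9 barcodes (4.25%, 1.96 to 7.91) of which 2 also held a TRA and TRB pair, each contig with 1 UMI and none productive. TRG contigs numbered 5, TRD contigs 1 and contigs with no chain 7, none of them productive. Dataset 2 and the library without uveitis held 0 of each, which allows up to 0.822% of 365 barcodes and 0.586% of 512.

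**Figure D5:**
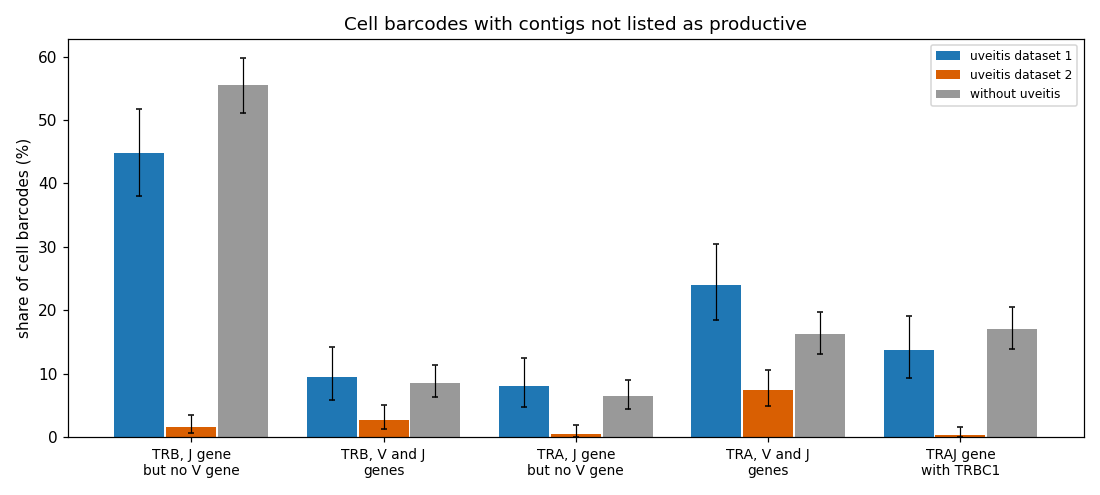
Share (%) of cell barcodes that held each kind of contig not listed as productive, in uveitis dataset 1 (blue, 212 barcodes), uveitis dataset 2 (orange, 365) and the library without uveitis (grey, 512), with exact 95% intervals as bars. TRB contigs with a J gene but no V gene were in 44.8% of barcodes in dataset 1 and 1.64% in dataset 2.

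The J gene and CDR3 values given for clonotypes and cells rest on productive contigs alone, so the contigs without a productive call entered none of them. Among cells, 19 of 176 in dataset 1 and 27 of 324 in dataset 2 had more than 1 productive TRA, and the chain with the most UMIs was used.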

How the data were processed

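The authors loaded P2 tetramer-sorted CD4+ T cells of each pool on the 10x Genomics platform, sequenced TCRα and TCRβ, and assembled contigs with Cell Ranger (version 3) against its mouse VDJ reference, GRCm38_alts_ensembl. The genome build per the labels is GRCm38 (mm10). The deposited values are raw counts of reads and of UMIs for every contig, as whole numbers without normalization, with the genes, CDR3 and productive call of each contig. Every barcode in the files carries a cell call and every contig a high-confidence flag. The mRNA libraries were not used here.

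Of several productive contigs of a chain, that with the most UMIs, then reads, was taken. No step removed doublets. A contig was counted as not productive where the call was not True. V and J genes were matched by name to GENCODE transcripts of GRCm38 (140 of 140 genes used in the uveitis pools). The germline match runs from the CDR3 start along the V gene and from its end along the J gene, to the first differing base. Where the matches meet or overlap, the bases between were taken as 0.

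Shares have exact 95% Clopper-Pearson intervals, medians of UMIs exact order-statistic intervals, and a count of 0 the share that 3 counts make. PCR can copy molecules and cells share clonotypes, so these cover counting error only. The number of clonotypes, cells, barcodes or contigs counted sets their width. J genes named are the 5 with the most clonotypes in either pool (ties by name) and those with intervals apart, and V-J joins the 5 with the most clonotypes in either pool and those with at least 2 in both. The members and lists were chosen with earlier results of these data known. Alternatives counted cells, contigs of at least 2 UMIs, cells with 1 chain of each kind, other clonotype definitions and other sets of contigs. The functions were tested on simulated contigs with known answers (Python 3.11.15, pandas 2.3.3, scipy 1.17.1).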

Additional observations from a re-analysis of the deposited data

How the results depend on the processing

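Leaving out a pool leaves no comparison, so no such value can be given. No paired analysis was possible because each pool is 1 library and no test was made. Of 71 shares, UMI medians and counts recomputed under the alternatives, 56 stayed within the exact interval of the value reported (for counts, within 1.5 times) and 15 moved beyond it. Means have no such interval and are given by their range. Over the alternatives, mean CDR3α length ran from 39.8 to 40.5 bases in dataset 1 and 40.02 to 40.7 in dataset 2, and mean CDR3β length from 42.5 to 42.8 and 41.2 to 43.4. The mean bases outside the germline matches ran from 3.68 to 4.03 in dataset 1 and 2.82 to 3.47 in dataset 2 in CDR3α. Dataset 1 was higher in all 6 alternatives, which draw on the same cells. The median over clonotypes was 3 in both pools. In CDR3β the means ran from 10.5 to 10.6 and 10.2 to 11.3. Counting cells in place of clonotypes gave 3 TRAJ genes and 3 TRBJ genes with intervals apart in place of 0 and 0, and a TRBJ2 share of 65.7% in dataset 2. Asking for 2 or more cells of each pool left 7 TRA joins and 15 TRB joins in both pools, against 14 and 37. Merging the D and N copies of a TRAV gene (such as TRAV9D-1 with TRAV9-1) gave 20 TRA joins in both pools.

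The share of contigs that were not productive moved with what was counted, while dataset 1 stayed above dataset 2 under all 5 alternatives for each chain. Counted in UMIs it was 14.8% and 4.83% for TRA and 26.9% and 1.43% for TRB in datasets 1 and 2. Among barcodes with a productive TRA and TRB the TRA share was 18.1% and 5.39%. Among contigs with a V and a J gene, and equally among full-length contigs, it was 20.5% and 7.27% for TRA and 8.62% and 2.49% for TRB in datasets 1 and 2, so that TRA exceeded TRB in dataset 1 too. The order of the pools also turned for the mean CDR3β length when cells were counted, for the bases outside the germline matches of CDR3β in cells with 1 TRA and 1 TRB or in clonotypes seen in 1 cell, and was lost for the median TRA UMIs, at 5 in both pools, with at least 2 UMIs per contig or over clonotypes.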
